A study of Mus musculus with 3 samples.

Results

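Among Ly6Chi monocytes sorted from injured mouse livers, a small set of cells carried transcripts of the protease gene Prtn3 and of the protease inhibitor gene Serpinb1a together with Ly6c2, but none of S100a8. Barcodes were first required to hold 500 or more genes, with mitochondrial transcripts no higher than 10% of UMIs. Each chosen cell had at least 1 unique molecular identifier (UMI, 1 captured transcript) of Ly6c2, Prtn3 and Serpinb1a and 0 UMIs of S100a8. They also held under 5 Arg1 UMIs, and under 15 UMIs of H2-Aa, H2-Ab1 and H2-Eb1 together, per 10000. By this rule 190 of 16021 filtered cells were Prtn3+ S100a8- monocytes, a share of 1.19% (exact Clopper-Pearson 95% interval 1.02 to 1.37).

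The knockout library, numbered 4, came from LysM-Cre mice, whose Cre driver sits at the lysozyme locus Lyz2 and deletes floxed Commd10 in myeloid cells. The 2 control libraries, numbered 1 and 3, came from Commd10fl/fl mice without deletion. All mice were male, on the C57BL/6 background and 8 weeks old, and every group was treated alike: 12 h of fasting, 300 mg/kg acetaminophen into the peritoneum, chow back after 2 h, and liver collection at 24 h. Each library was made from sorted Ly6Chi cells with droplet 3' sequencing. Nothing in the labels ties a library to 1 mouse or to several. The p-values therefore reflect variation among the libraries alone, and that variation may be technical.

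Ly6Chi monocytes leave the bone marrow, enter injured tissue through the chemokine receptor Ccr2 and mature there into macrophages, losing Ly6c2 as they do. Prtn3 encodes proteinase 3, a serine protease made by myeloid precursors and stored in neutrophil granules, and Serpinb1a encodes a cytosolic inhibitor of such proteases. S100a8 and its partner S100a9 encode calprotectin, which is abundant in neutrophils and in monocytes that share features with them.

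Promoter sequences are shown for Prtn3 and Ly6c2, a pair of the genes that select the cells, since both held the same short motif upstream of the transcription start. The capitals mark AGGAAGT, a motif of the type bound by PU.1, the transcription factor that myeloid cells depend on. Each line gives the 250 bases before a RefSeq transcription start on GRCm38.p6, written in the direction of the gene, for Prtn3 (chr10:79879417-79879666, plus strand) and for Ly6c2 (chr15:75111972-75112221, minus strand).
Prtn3: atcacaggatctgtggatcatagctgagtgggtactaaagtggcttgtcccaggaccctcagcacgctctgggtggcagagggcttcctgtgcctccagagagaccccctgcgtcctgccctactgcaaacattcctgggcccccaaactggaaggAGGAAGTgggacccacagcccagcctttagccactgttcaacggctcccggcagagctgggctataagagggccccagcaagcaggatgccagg
Ly6c2: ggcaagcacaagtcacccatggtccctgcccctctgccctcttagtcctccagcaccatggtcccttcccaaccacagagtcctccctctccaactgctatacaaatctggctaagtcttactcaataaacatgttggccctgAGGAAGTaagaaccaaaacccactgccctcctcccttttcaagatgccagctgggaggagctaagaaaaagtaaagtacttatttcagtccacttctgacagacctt

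The match lay at -94 from the start in Prtn3 and at -107 in Ly6c2. Counted from a second RefSeq start of Ly6c2, whose window is not shown, matches lay at -141 and -7. No window was found for Serpinb1a, which the rule also required. Searched on both strands, AGGAAGT occurred in 7.69% of 32851 RefSeq windows of 250 bases. A C/EBP-type motif, TTGCNNAA, which has no overlap with the first, occurred in 9.56% of the same windows and in neither of these sequences. The windows of Itgb7, Mgst3 and Glipr2, genes described next, held neither motif. Mgst1, also described later, had the C/EBP-type motif at -83 in the first of its 2 windows. A match is a description of letters, and binding was not measured.

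Most of these cells sat at the lower edge of the rule. A single Prtn3 UMI was found in 14 of 23 cells of knockout 4, 21 of 36 cells of control 1 and 75 of 131 cells of control 3, and the highest count in any cell was 5, 10 and 8 UMIs in the same order. Ly6c2 was well above its limit, with medians of 13, 13.5 and 11 UMIs per cell. Just outside the rule lay cells that met all of it but held S100a8, numbering 116, 122 and 236, of which 10, 17 and 60 held exactly 1 S100a8 UMI. Cells that missed Prtn3 alone numbered 37, 54 and 228, and cells that missed Serpinb1a alone 59, 117 and 392.

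The cells were deeper than the median cell of their library. Median UMIs per cell were 9332 in knockout 4, 9935.5 in control 1 and 9094 in control 3, against 6865, 8770 and 8160 over all filtered cells of the same libraries. Summed over cells they gave 222144 UMIs in knockout 4, against 371045 in control 1 and 1435888 in control 3, so the knockout sum was the smallest and rested on the fewest cells. Between libraries 54 barcodes occurred more than once, among them that of 1 Prtn3+ S100a8- cell, and no barcode was such a cell in 2 libraries. Free RNA was gauged in cells with at least 3 UMIs of B cell or of T cell receptor genes and no Csf1r, 12, 17 and 22 in knockout 4, control 1 and control 3. Their medians of 2634, 2302 and 2425 UMIs were well below those of the monocytes. None of them held Prtn3 (upper ends of exact 95% intervals 26.5%, 19.5% and 15.4%). Serpinb1a was seen in 2, 6 and 3 of them and Ly6c2 in 4, 6 and 8. S100a8 was found in 3 of 12 such cells of knockout 4 and in none of the control cells. Whether such cells transcribe Ly6c2 or Serpinb1a themselves was not tested, so those counts need not be free RNA.

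Prtn3+ S100a8- monocytes made up 0.516% of filtered cells in knockout 4 (exact Clopper-Pearson 95% interval 0.327 to 0.773), against 0.875% in control 1 (0.613 to 1.21) and 1.76% in control 3 (1.47 to 2.08). The intervals cover counting error only. Knockout 4 had the lowest share, its interval overlapped that of control 1, and both controls differed from each other by more than knockout 4 did from control 1. With 1 library against 2, an exact permutation test cannot give a p below 0.333, so no test was made. When every cell was thinned to 3000 UMIs, which left out 757, 527 and 713 shallower cells, the shares were 0.189% in knockout 4, 0.251% in control 1 and 0.638% in control 3, in the same order.

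Without the S100a8 limit the shares lay closer together. Cells that met the rest of the rule, whatever their S100a8, made up 3.12% of knockout 4, 3.84% of control 1 and 4.93% of control 3, and after thinning 0.973%, 0.864% and 0.95%. Of those cells, 16.5% were free of S100a8 in knockout 4, against 22.8% in control 1 and 35.7% in control 3. S100a8 was itself detected in 46.7% of all filtered cells of knockout 4, against 38.9% in control 1 and 28.2% in control 3. The order of the shares of Prtn3+ S100a8- cells was thus the reverse of that of S100a8 detection, and the part that S100a8 level or free S100a8 RNA takes in these shares was not tested.

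**Figure D1:**
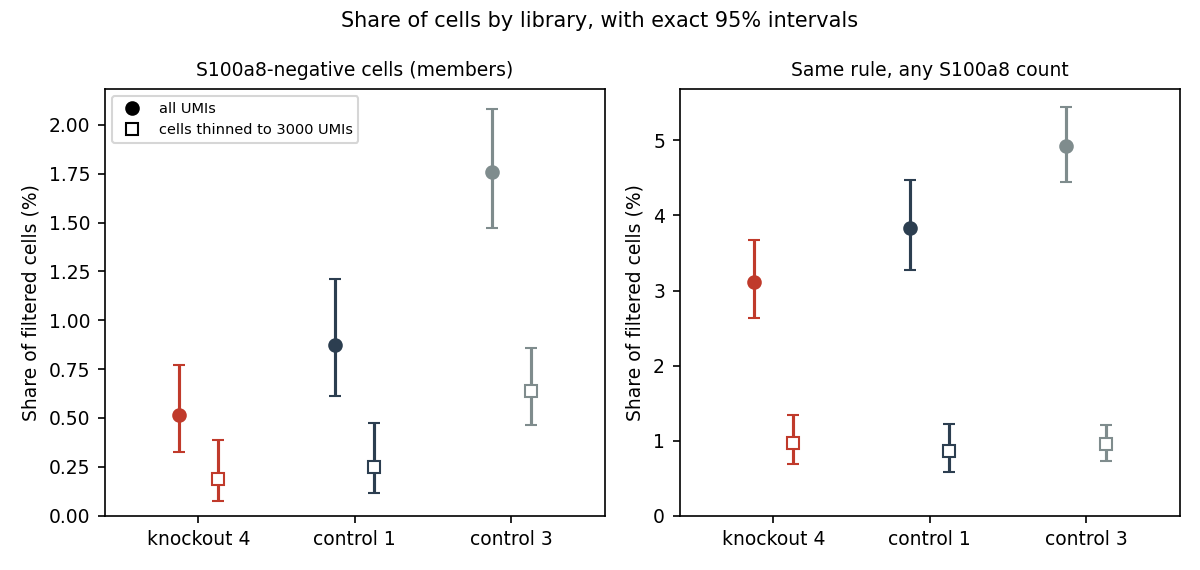
Share of filtered cells (%, linear axes) in knockout 4, control 1 and control 3 for the Prtn3+ S100a8- monocytes (left, "members") and for cells meeting the same rule with any S100a8 count (right). Filled circles use all UMIs, open squares use cells thinned to 3000 UMIs, and bars are exact 95% intervals of counting error; the left shares run from 0.516% to 1.76% and the thinned right shares from 0.864% to 0.973%.

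What else the cells transcribed is described against Prtn3-negative cells, which met the same limits on Ly6c2, S100a8, Arg1 and class II genes but had no Prtn3 UMI (599 in knockout 4, 920 in control 1 and 2511 in control 3). Ly6c2 was far lower in them, with medians of 2, 3 and 3 UMIs per cell, and its summed level was 1400, 1488 and 1249 CPM in the chosen cells, against 589, 465 and 608 CPM. Serpinb1a was not asked of them, and 6.18%, 5.87% and 9.08% of them held it. Since the rule picked cells by their own counts, these contrasts are a description and carry no test. Levels are CPM, the UMIs of a gene for every 1000000 UMIs of the summed cells. Of 3015 genes whose mean over both cell groups was 50 CPM or more, 0.531% (16 genes) were at least 2 times higher and 1.76% (53 genes) at most 0.5 times as high in every library.

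The genes given with the rule were higher in the Prtn3+ S100a8- monocytes in every library. Itgb7, the beta chain of the gut-homing integrin alpha4 beta7 (chromosome 15, 102215995 to 102231944, GRCm38, minus strand), stood at 284, 323 and 261 CPM in knockout 4, control 1 and control 3, against 116, 109 and 135 CPM in Prtn3-negative cells. Tppp3, a tubulin-binding protein, stood at 180, 197 and 133 CPM, against 81.7, 69.5 and 79.3 CPM. Mgst3, a microsomal glutathione S-transferase, stood at 67.5, 86.2 and 60.6 CPM, against 16.7, 27.4 and 25.1 CPM. The ratios ran from 1.68 for Tppp3 in control 3 to 4.05 for Mgst3 in knockout 4. Of the 3015 genes above, 27.7% had a ratio over 1 in every library. After thinning to 3000 UMIs, Mgst3 was detected in 17.4% of the cells in knockout 4, 27.8% in control 1 and 21.4% in control 3, against 4.88%, 8.42% and 7.31% of Prtn3-negative cells.

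Other genes led the ranking too. Glipr2 stood at 117, 97 and 128 CPM in knockout 4, control 1 and control 3, against 26.5, 24.6 and 35.9 CPM, and had the highest minimum ratio of the genes ranked, 3.57 in control 3. Mgst1, a second microsomal glutathione S-transferase, stood at 437, 385 and 521 CPM, against 167, 135 and 239 CPM. Anxa1, the annexin that restrains inflammatory leukocytes, stood at 621, 577 and 538 CPM, against 234, 207 and 252 CPM. Mmp8, neutrophil collagenase, was between 2.20 and 2.24 times higher in the 3 libraries. Genes were ranked if they stood at 50 CPM or more in these cells of every library, a limit not set on the Prtn3-negative cells, so some passed only through the group where they were high. The 20 with the highest minimum ratio also included I830127L07Rik, Pi16, Flot2, Cdkn2d, Hopx, Lbr, Tuba1a, Lcn2, AI839979, Add3, Iqgap2, Plp2, Gas7 and Ccnd3, with ratios between 1.95 and 6.32. After thinning, Pi16 had a ratio of 0.81 in knockout 4, the only one of these ratios under 1.

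Genes of maturing macrophages were lower throughout. Of the 15 macrophage maturation genes at the level needed, 13 had a ratio under 1 in every library and none a ratio over 1 in every library. The median ratio was 0.327, beside 1.01 over all 3015 genes, of which 26.5% were under 1 and 27.7% over 1 in every library. C1qa, a chain of complement C1q, stood at 36, 29.6 and 41.8 CPM in knockout 4, control 1 and control 3, against 158, 229 and 146 CPM in Prtn3-negative cells. Apoe, the lipid carrier, stood at 990.3, 849 and 2220 CPM, against 3552, 3947 and 5504 CPM. Spp1, which encodes osteopontin, stood at 194, 83.6 and 74.5 CPM, against 901, 668 and 443 CPM. Each of these genes had a ratio under 1 in every library. Other low genes were Lpl, a lipase with ratios of 0.049 to 0.215, and the scavenger receptor Cd36, with 0.029 to 0.24. Lgmn, a lysosomal protease, had ratios of 0.257 to 0.352. Lpl stood at 13.5, 113 and 48.1 CPM in the chosen cells of knockout 4, control 1 and control 3. Cd36 stood at 4.5, 2.7 and 14.6 CPM, so its lowest ratios rest on very few UMIs. The ranking of low genes, C1qa, Spp1, Ccl7 and Il1rn among them, asked for 50 CPM or more in Prtn3-negative cells alone. Its genes thus passed through the group where they were high.

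Chemokines were low as well. Of 14 cytokine and chemokine genes at the level needed, 12 had ratios under 1 in every library and the median was 0.349. Ccl7, which attracts monocytes through Ccr2, stood at 36, 8.09 and 39.7 CPM in knockout 4, control 1 and control 3, against 183, 148 and 162 CPM. Il1rn, the interleukin 1 receptor antagonist, had 0 UMIs in knockout 4, and 2.7 and 26.5 CPM in controls 1 and 3, against 206, 72.6 and 125 CPM in Prtn3-negative cells.

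Genes of Ly6Chi monocytes were mostly higher. Of 17 Ly6Chi identity genes at the level needed, 12 were over 1 and 3 under 1 in every library, with a median ratio of 1.26. Vcan, a matrix proteoglycan of inflammatory monocytes, stood at 612, 332 and 621 CPM in knockout 4, control 1 and control 3, against 268, 107 and 375 CPM. Hp, which encodes haptoglobin, stood at 1287, 1113 and 1316 CPM, against 535, 441 and 780 CPM. Chil3 went the other way, at 1468, 1162 and 3369 CPM against 2914, 1838 and 3696 CPM. Ribosomal protein genes were also higher: 74 of 79 had a ratio over 1 in every library, with a median of 1.16.

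The ratios of Itgb7, Mgst3, Tppp3 and Glipr2 were smaller in every library when both groups were held to 10 or more Ly6c2 UMIs, a limit chosen after seeing the data. That left 15, 24 and 72 of the Prtn3+ S100a8- cells of knockout 4, control 1 and control 3, against 47, 102 and 367 Prtn3-negative cells, with Ly6c2 at 1789, 1897 and 1653 CPM, against 2124, 1252 and 1464 CPM. Mgst3 was then 1.76 to 2.30 times, Itgb7 1.35 to 1.70 times and Glipr2 1.76 to 2.68 times as high. Tppp3 was no longer higher in knockout 4, with a ratio of 0.89 there and of 1.88 and 1.32 in controls 1 and 3. Of the same 15 maturation genes 13 were still under 1 in every library (median 0.367), and of the 14 cytokine and chemokine genes 9 were (median 0.436). Of the 17 Ly6Chi identity genes 9 were over 1 and 3 under 1 in every library, with a median of 1.15. Of all 3015 genes 698 were then over 1 and 683 under 1 in every library, with a median of 1.01.

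Cell by cell the identity and maturation lists gave the same picture. Median summed level of the macrophage maturation genes was 34.7 UMIs per 10000 in knockout 4 and 29.4 in control 1, against 68.8 and 82.6 in Prtn3-negative cells of the same libraries. In control 3 the median was 27.1, against 78.3 in Prtn3-negative cells. The highest single cell reached 85.5 in knockout 4, 82.1 in control 1 and 172 in control 3, against 835, 737 and 1033 among the far more numerous Prtn3-negative cells. For the Ly6Chi identity genes the medians were 336 in knockout 4 and 382 in control 1, against 257 and 311.

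**Figure D2:**
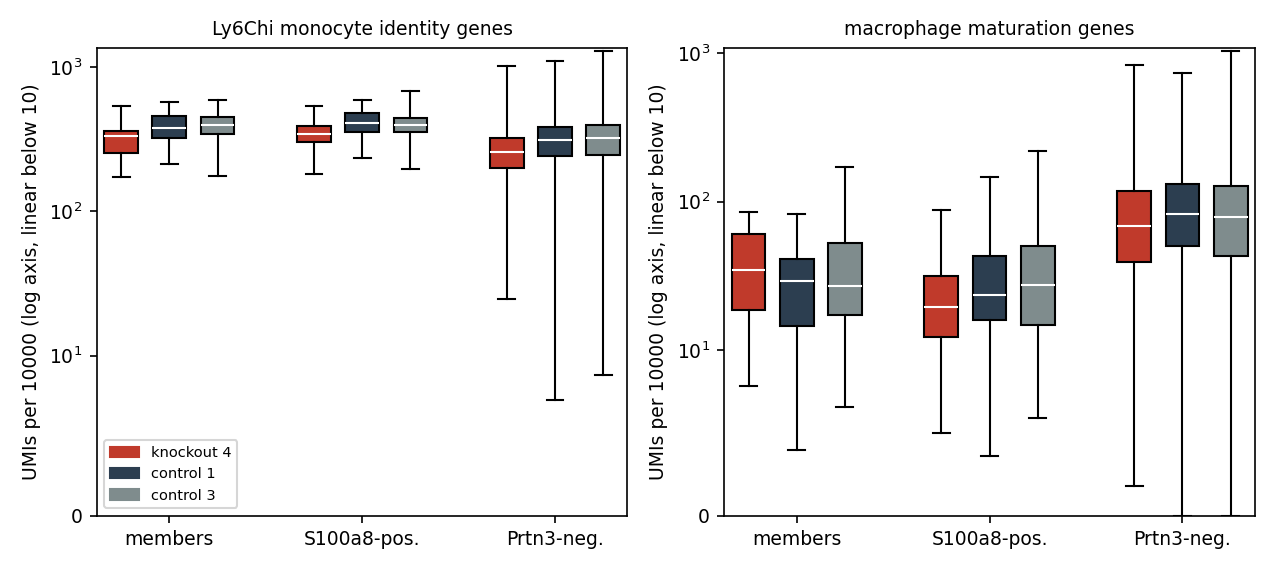
UMIs per 10000 of each cell (logarithmic axis, linear below 10) summed over the Ly6Chi identity genes (left) and the macrophage maturation genes (right), for Prtn3+ S100a8- monocytes ("members"), their S100a8-positive counterparts and Prtn3-negative cells. Boxes span the quartiles with the median as a white line, whiskers reach the lowest and highest cell, and knockout 4, control 1 and control 3 stand from left to right in each group; the maturation medians of the first group lie below those of the Prtn3-negative cells in every library.

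Several genes of the marrow precursors that make proteinase 3 were not detected. Mpo and Prss57, which encode further primary granule proteins, had 0 UMIs in all 190 cells, as did Ms4a3, another gene of such precursors. Kit, Myb, Gata2 and Gfi1, which mark progenitors, were also at 0. For each of these genes this allows a share of cells with a UMI of up to 1.58%, an approximate limit of 3 counts over the 190 cells. Others were found at low levels. Elane, neutrophil elastase, was seen in 1, 4 and 2 cells of knockout 4, control 1 and control 3, at 4.5, 10.8 and 1.39 CPM, against 0.77, 0.235 and 0.32 CPM in Prtn3-negative cells, and Ctsg, cathepsin G, in 1, 0 and 4 cells. Cd34, a surface protein of progenitors, stood at 9, 8.09 and 3.48 CPM, against 2.05, 1.41 and 2.01 CPM, from 2, 3 and 5 UMIs. Flt3, a cytokine receptor of progenitors and dendritic cells, stood at 13.5, 2.7 and 15.3 CPM, against 1.54, 1.53 and 4.71 CPM, from 3, 1 and 22 UMIs. Elane, Cd34 and Flt3 were thus higher than in Prtn3-negative cells of every library, on under 10 UMIs each except Flt3 in control 3. In cells that held S100a8 but met the rest of the rule, Elane was higher still, at 30.8, 20.5 and 6.62 CPM. Mpo was found there too, at 3.52, 1.92 and 0.864 CPM. Cd34 was lower there, at 3.52, 1.28 and 1.73 CPM, and so was Flt3, at 0, 1.28 and 5.18 CPM. Cdk6, a kinase of progenitor growth, went the other way, at 13.5, 35 and 16 CPM, against 59.1, 76.3 and 47 CPM. All 11 progenitor genes listed, Cdk6 among them, summed to 49.5, 86.2 and 54.3 CPM, against 78.8, 103 and 67.6 CPM. Cdk6 alone gave 59.1, 76.3 and 47 CPM of the latter sums, so the direction of this contrast was set by that gene. The label early monocytes, where early means a marrow precursor, is thus neither borne out nor contradicted by all of these genes. Ccr2, at 1116, 755 and 1194 CPM, and Csf1r, the receptor for macrophage colony-stimulating factor, at 401, 415 and 457 CPM, were plentiful. All 5 markers of Kupffer cells, of basophils and mast cells and of T cells, and all 4 of stellate cells, were at 0. Of 10 neutrophil markers 6 were at 0, Ly6g, Camp and Ltf among them. The list summed to 221, 197 and 297 CPM, against 159, 117 and 168 CPM in Prtn3-negative cells. In the S100a8-positive counterparts, which met the rest of the rule, it summed to 886, 393 and 332 CPM. The list includes S100a9, the partner of the S100a8 that divides these cells, at 502, 161 and 44.1 CPM in the counterparts. That contrast is therefore partly set by the rule.

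Cells with S100a8 that met the rest of the rule were much alike. Of 2962 genes at the level needed, none was at least 2 times higher in the S100a8-negative cells in every library (0.0%), and 0.101%, namely Lcn2, S100a9 and Wfdc21, were at most 0.5 times as high. S100a9, not used by the rule, stood at 0, 2.7 and 0.696 CPM in knockout 4, control 1 and control 3, against 502, 161 and 44.1 CPM in the S100a8-positive cells. Lcn2, the granule protein lipocalin 2, stood at 131, 97 and 120 CPM, against 1036, 459 and 330 CPM. Both were lower in the S100a8-negative than in the S100a8-positive cells of every library, and both were highest in the S100a8-positive cells of knockout 4. Itgb7, Mgst3 and Tppp3 were between 1.01 and 1.42 times as high in the S100a8-negative as in the S100a8-positive cells.

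**Figure D3:**
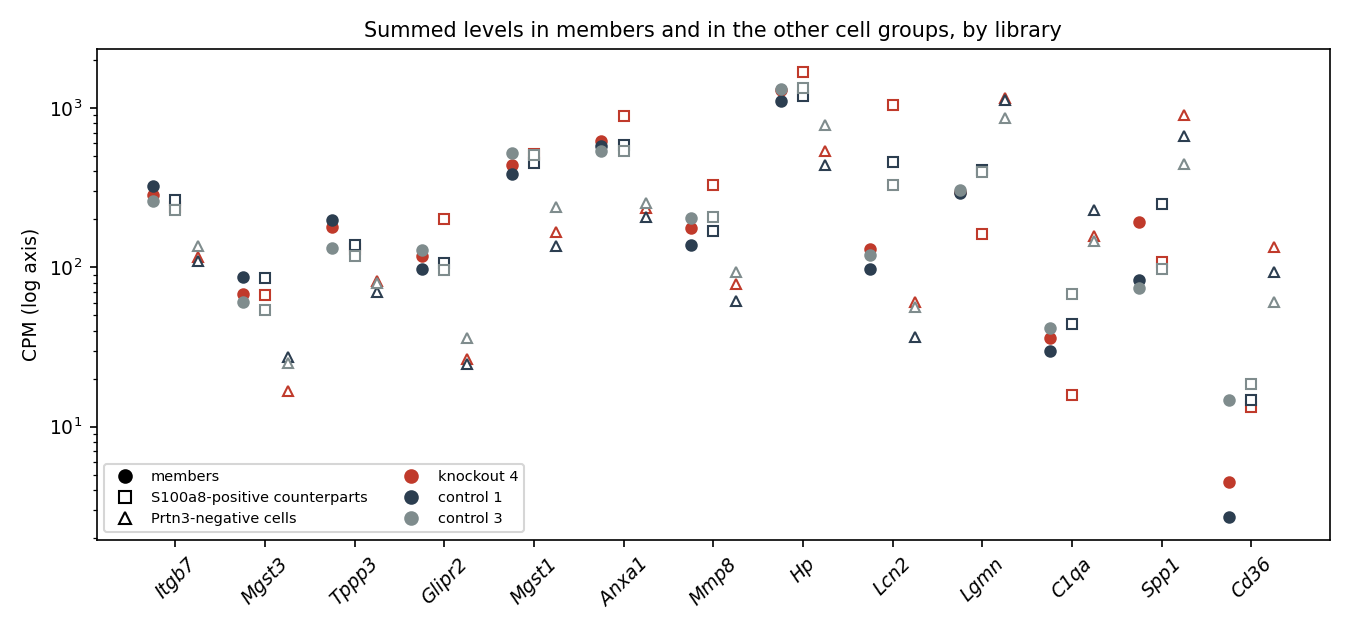
Summed levels (CPM, logarithmic axis) of genes in Prtn3+ S100a8- monocytes (filled circles, "members"), their S100a8-positive counterparts (open squares) and Prtn3-negative cells (open triangles), 1 point per library, with knockout 4 in red, control 1 in dark blue and control 3 in grey. Itgb7, Mgst3 and Tppp3 are higher and Lgmn, C1qa, Spp1 and Cd36 lower in the filled circles than in the triangles of every library, and Lcn2 separates the circles from the squares.

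Within the Prtn3+ S100a8- monocytes, the given markers varied with the number of Prtn3 UMIs, which the rule used, in no single order. In control 3, the library with most cells, Itgb7 stood at 211, 314 and 327 CPM in cells with 1, 2 and 3 or more Prtn3 UMIs (75, 29 and 27 cells), and Mgst3 at 41.4, 82.1 and 84 CPM. In knockout 4, Itgb7 stood at 197, 349 and 484 CPM over 14, 5 and 4 cells. Control 1 did not show this order for Itgb7, at 290, 417 and 279 CPM over 21, 10 and 5 cells. Tppp3 stood at 182, 226 and 121 CPM in knockout 4, at 290, 97 and 61.9 CPM in control 1 and at 109, 139 and 187 CPM in control 3, so its order in control 1 was the reverse of that in control 3. In control 3 the lower 2 bins differed in median depth, at 8590 and 9879 UMIs, with 9188 in the upper one, and the part of depth was not tested.

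The knockout was then compared with the controls within these cells. UMIs were summed per library, and edgeR's quasi-likelihood test with Benjamini-Hochberg adjustment over all 5541 genes tested was used at a threshold of 0.05. In this section CPM values are scaled by TMM factors, and a fold change is the log2 ratio of knockout to control, given with its standard error (SE; 1 knockout and 2 control libraries). The single knockout library is assumed to vary like the controls, with 1 residual degree of freedom. Of the genes tested, 7 were higher (0.126%) and 1 was lower (0.018%).

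Commd10, the deleted gene, gave 9 CPM, unscaled, in knockout 4, against 10.8 CPM in control 1 and 10.4 CPM in control 3, too little to compare. Reads from the 3' end need not come from the floxed exons, so this is no check of the genotype. Lyz2, which carries the Cre driver, stood at 9826 CPM in knockout 4, against 20149 and 15435 CPM in controls 1 and 3. The knockout level was below both controls, without passing the test (log2 fold change -0.86 ± 0.20, edgeR, adjusted p = 0.242). At fold changes of -0.84 to -0.90 it passed with 2 or more Prtn3 UMIs (edgeR, adjusted p = 0.0116), without a filter on low counts (0.0218), without cells of high UMI count (0.0465) and without dividing cells (0.000982), while over all alternatives with a test the adjusted p reached 0.999, with DESeq2.

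Ifitm1, an interferon-induced membrane protein that restricts virus entry (chromosome 7, 140967221 to 140969825, GRCm38, plus strand), rose in knockout cells. It stood at 359 CPM in knockout 4, against 31.3 CPM in control 1 and 57.5 CPM in control 3. The knockout value lay above both controls, with a log2 fold change of 2.86 ± 0.33 (edgeR, adjusted p = 0.000547). It was detected in 13 of 23 knockout cells, against 7 of 36 and 30 of 131 control cells. A single knockout cell held 40 of its 78 UMIs, and without the top cell of each library the fold change was 2.27 and still passed. It was 3.50 without control 3 and 2.64 without control 1, values without a test.

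The same gene was higher in Prtn3-negative knockout cells, at 129 CPM against 31.6 and 34.8 CPM (log2 fold change 1.95 ± 0.17, edgeR, adjusted p = 0.0173), where 2 of 11875 genes rose (0.0168%) and 1 fell (0.00842%). The effect in the Prtn3+ S100a8- cells minus that in the Prtn3-negative cells was 0.85 ± 0.30 log2 units and did not pass (edgeR interaction term, adjusted p = 0.404).

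Cxcl2, a chemokine that attracts neutrophils (chromosome 5, 90903871 to 90905938, GRCm38, plus strand), fell in the knockout Prtn3+ S100a8- cells. It stood at 73.7 CPM in knockout 4, against 433 CPM in control 1 and 389 CPM in control 3, below both controls, with a log2 fold change of -2.47 ± 0.36 (edgeR, adjusted p = 0.00405). In control 1, a pair of cells held 137 of its 152 UMIs. It was found in 7 of 23 knockout cells, against 8 of 36 and 49 of 131 control cells. Without the top cell of each library the fold change was -2.29 and did not pass (adjusted p = 0.0806).

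In Prtn3-negative cells Cxcl2 stood the other way, at 1001 CPM in knockout 4, against 734 and 715 CPM in the controls, without passing (adjusted p = 0.874). The difference between these effects was -2.99 ± 0.28 log2 units (edgeR interaction term, adjusted p = 6.69e-23, and DESeq2, adjusted p = 9.99e-06). With 1 residual degree of freedom, this edgeR fit took the spread of each gene wholly from the trend over all genes. A very small p from it is thus no measure of the spread between knockout libraries, of which there was 1. In the S100a8-positive counterparts, Cxcl2 stood at 493 CPM in knockout 4, against 503 and 374 CPM in the controls, unscaled. When cells of any S100a8 count were pooled, the fold change was 0.01 (edgeR, adjusted p = 0.997), so the fall was not seen without the S100a8 limit.

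Saa3, an acute-phase serum amyloid protein (chromosome 7, 46711998 to 46715700, GRCm38, minus strand), and Socs1, a suppressor of cytokine signalling induced by interferons, rose as well. Saa3 stood at 267 CPM in knockout 4, against 11.4 and 47.2 CPM in controls 1 and 3 (log2 fold change 2.86 ± 0.42, edgeR, adjusted p = 0.00405), and 1 knockout cell held 29 of 58 UMIs. It did not pass with DESeq2 (fold change 3.16) or without the top cell (2.51), and the fold change was 4.50 without control 3 and 2.50 without control 1. Socs1 stood at 129 CPM in knockout 4, against 2.85 and 5.16 CPM (4.75 ± 0.64, edgeR, adjusted p = 0.00313), and 1 of the 4 knockout cells that had it held 21 of 28 UMIs. Both genes lay above both controls, and without its top cell Socs1 was too low to be tested.

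Of the other calls, 3 rested on a dividing cell. Ube2c and Top2a, which act in mitosis, and Cenpf, a centromere protein, stood at 180, 120 and 101 CPM in knockout 4. In control 1 they stood at 5.7, 2.85 and 0 CPM and in control 3 at 3.69, 2.95 and 1.47 CPM. A single knockout cell of 16519 UMIs held 39 of 39 Ube2c, 25 of 26 Top2a and 22 of 22 Cenpf UMIs. Hist1h2bc, a histone gene, stood at 212 CPM against 74.1 and 34.7 CPM (2.18 ± 0.40, edgeR, adjusted p = 0.0383, and 1.51 without control 3). It was found in 10 of 23 knockout cells, and a second knockout cell held 26 of its 46 UMIs. Its call was lost with DESeq2, with 2 or more Prtn3 UMIs, without the top cell and without the dividing cells counted next. Its fold change was then 2.04, 0.47, 1.81 and 0.92 in the same order. Cells with 10 or more UMIs over 9 mitosis genes numbered 2 of 23 in knockout 4, 1 of 36 in control 1 and 0 of 131 in control 3, but the second knockout cell was at the limit, with 10 such UMIs and none of Ube2c, Cenpf or Mki67, against 150 in the first. In the cell cycle list 8 of 11 genes tested lay above both controls and 0 below, beside 36.2% above and 38.5% below over all genes tested. The 2 called were Ube2c and Top2a, which rested on the first knockout cell. How far the other genes of the list rest on that cell was not tested.

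**Figure D4:**
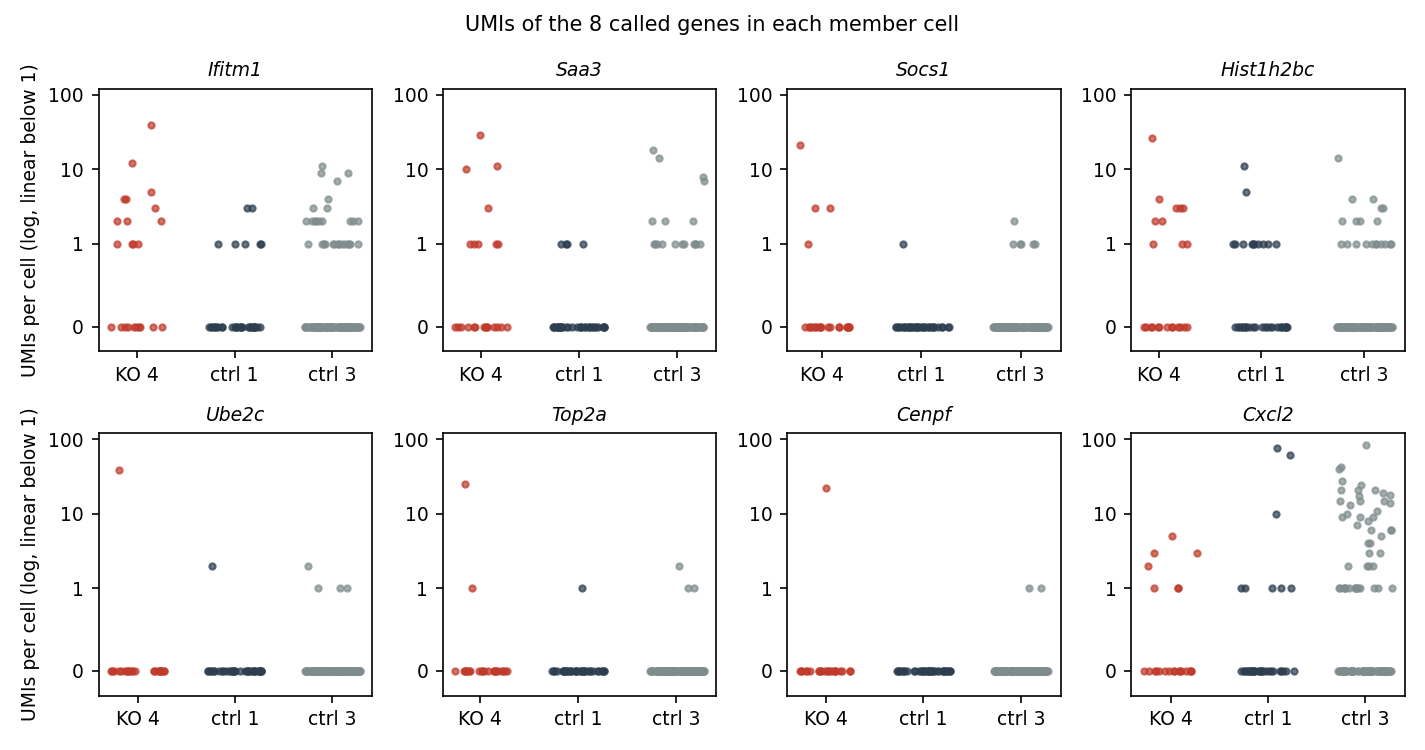
UMIs per cell (logarithmic axis, linear below 1) of the 8 genes that passed the knockout test, for each Prtn3+ S100a8- monocyte of knockout 4 (KO 4), control 1 and control 3 (ctrl), 1 point per cell with sideways scatter for visibility. Ifitm1 is spread over 13 of 23 knockout cells, while Ube2c and Cenpf are found in 1 knockout cell each.

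Genes next in rank did not pass. Ankrd37, induced by low oxygen, stood at 134 CPM in knockout 4, against 31.3 and 35.4 CPM (log2 fold change 1.96 ± 0.39, edgeR, adjusted p = 0.0628), and was found in 10 of 23 knockout cells with no cell over 7 of 29 UMIs. Tarm1, an activating receptor of myeloid cells, stood at 152 CPM, against 51.3 and 43.5 CPM (adjusted p = 0.0857). Ccrl2, a receptor that binds chemerin, stood at 23 CPM in knockout 4, against 91.2 and 195 CPM in controls 1 and 3 (adjusted p = 0.239).

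The genes that mark the set showed no called difference. Itgb7 stood at 290.2 CPM in knockout 4, against 342 and 276 CPM (log2 fold change -0.07 ± 0.29, edgeR, adjusted p = 0.976). Mgst3 had a fold change of -0.08 ± 0.43, Tppp3 of 0.14 ± 0.34 and Mgst1 of -0.12 ± 0.28, with the knockout value between the controls for each. A p that misses the threshold does not show that these levels were equal.

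Gene lists are given by their counts beside all 5541 genes tested, of which 36.2% lay above both controls and 38.5% below both, with a median log2 fold change of -0.03. In the glycolysis and hypoxia list, 14 of 20 genes tested lay above both controls and 3 below, with a median of 0.45 and no gene called. Slc2a1, the glucose transporter GLUT1, stood at 111 CPM in knockout 4, against 37 and 45 CPM (adjusted p = 0.366), and Ldha, lactate dehydrogenase A, at 880 CPM, against 496 and 595 CPM (adjusted p = 0.6). The list's median in Prtn3-negative cells was 0.71.

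Type I interferon response genes stood mostly the other way from Ifitm1, which is not in that list. Of 27 tested, 1 lay above and 19 below both controls, and none was called. The median log2 fold change of the genes tested was -0.42, or -0.40 with the 4 genes at 0 in knockout 4 set to their bound of 3 counts per library. These counts and medians weigh each gene alike. The whole list summed to 10137.6 CPM in knockout 4, between control 1 at 9718.5 CPM and control 3 at 11824 CPM, unscaled. Ddx58, the RNA sensor RIG-I, had 0 UMIs in knockout 4, against 7 and 59 UMIs in controls 1 and 3, at least 1.44-fold below control 1 and 3.15-fold below control 3 (against a floor of 3 UMIs in the knockout sum). Parp14, a mono-ADP-ribosyltransferase, stood at 55.3 CPM, against 142 and 147 CPM (adjusted p = 0.376). The list's median fold change in Prtn3-negative cells was near 0, at -0.0032.

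Among cytokine and chemokine genes, the counts were 2 above and 7 below both controls of 12 tested, with a median of -0.59 and Cxcl2 called. Of 15 macrophage maturation genes, 5 lay above and 3 below, with a median of -0.01. Among them Cx3cr1, the fractalkine receptor, stood at 101 CPM in knockout 4, against 245 and 251 CPM (adjusted p = 0.33). Of 17 Ly6Chi identity genes, 5 lay above and 4 below (median 0.03). Later granule genes numbered 5 above and 3 below of 9 tested (median 0.14), with Saa3 called.

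All 5 patrolling monocyte markers tested lay below both controls, without a call. Treml4, a receptor of these cells, stood at 18.4 CPM in knockout 4, against 57 and 61.9 CPM in controls 1 and 3 (adjusted p = 0.577). The whole list of 6, of which none was at 0 in every library, summed to 248 CPM in knockout 4, against 504 and 571 CPM, unscaled. Of 15 transcription factors of cell fate, 2 lay above and 7 below both controls (median -0.30), and of 80 ribosomal protein genes 11 lay above and 47 below (median -0.10). Integrins and homing receptors numbered 2 above and 6 below of 12 (median -0.08), and antioxidant genes of the NRF2 list 4 above and 4 below of 13 (median -0.06).

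Whether the knockout effect differed between the Prtn3+ S100a8- and the Prtn3-negative cells was tested with an interaction term over 6 sums. The fit left 1 residual degree of freedom and rested on 1 knockout library, so its p-values do not measure spread between knockout libraries. Of 10801 genes, 9 had a more positive (0.0833%) and 18 a more negative (0.167%) effect in the Prtn3+ S100a8- cells (edgeR). With DESeq2 the counts were 0 and 2, namely Cxcl2 and Thbs1. Thbs1, the matrix protein thrombospondin 1, stood at 101 CPM in knockout 4, against 131 and 394 CPM, in the Prtn3+ S100a8- cells, and at 666 CPM, against 190 and 545 CPM, in the Prtn3-negative cells. The difference was -2.29 ± 0.29 log2 units (edgeR interaction term, adjusted p = 8.18e-12). Besides Cxcl2 and Thbs1, the more negative genes included the chemokine genes Ccl2 and Ccl9, with -1.06 and -0.93, the NF-kB inhibitor gene Nfkbia, with -0.88, and the heme oxygenase gene Hmox1, with -0.81.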

How the data were processed

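Droplet 3' libraries of sorted Ly6Chi liver monocytes were analysed: 1 knockout library and 2 control libraries. The authors deposited raw UMI counts per gene and barcode, made with Cell Ranger 3.0.2 after bcl2fastq on GRCm38, per the file headers and per the submitters' processing notes. The matrices held 5152 barcodes in knockout 4, 4814 in control 1 and 8109 in control 3, with 30302932, 40092348 and 72867668 UMIs. Of 53802 gene identifiers, 53706 were found in GENCODE M21, the source of coordinates. No doublet caller was run; an alternative left out cells whose UMI count exceeded 2 times the median of their library.

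Cells were filtered and chosen by the stated rule, and UMIs were summed per library and cell group, since cells are not replicates. Sums were tested with edgeR 4.0.16 (R 4.3.3; limma 3.58.1): TMM, filterByExpr, glmQLFit and a two-sided glmQLFTest, Benjamini-Hochberg adjusted over all genes tested. The method was tested on simulated data. DESeq2 1.42.0, library totals, no filter, thinning to 3000 UMIs, other Prtn3 and S100a8 limits and the removal of single controls were alternatives. Comparisons of cells chosen by their own counts carry no test. Promoters came from RefSeq (GRCm38.p6), with entries for Prtn3, Ly6c2, Itgb7, Mgst3, Glipr2 and Mgst1 of 9 genes looked up.

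The cells, gene lists and markers were chosen with earlier results of these data known. Named genes were the 15 of lowest p above and the 15 below both controls, the leading genes of each list, and the 20 highest and 15 lowest ratios to Prtn3-negative cells, from which those described were taken; genes of the rule were left out. There were 16 functional and 15 cell type lists. Some genes are not reported here.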

Additional observations from a re-analysis of the deposited data

Results flagged for a closer look

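For 10 genes the knockout effect differed between the Prtn3+ S100a8- monocytes and the Prtn3-negative cells by the interaction test, the 5 of lowest p in each direction. Values are the log2 effect in the Prtn3+ S100a8- cells minus that in the Prtn3-negative cells, with edgeR's adjusted p. These p-values share the limit given above and do not measure spread between knockout libraries. Saa3 differed by 2.21 (adjusted p = 1.90e-08), Socs1 by 3.56 (adjusted p = 2.09e-06), the chromatin protein gene Hmgb2 by 1.19 (adjusted p = 2.34e-05), the histone gene Hist1h2bc by 2.08 (adjusted p = 8.52e-05) and Id3, an inhibitor of helix-loop-helix factors, by 1.20 (adjusted p = 0.00082). Cxcl2 differed by -2.99, Thbs1 by -2.29, the ferritin heavy chain gene Fth1 by -0.65, the long non-coding RNA Malat1 by -0.53 and Chil3 by -0.72. Of these, Cxcl2 and Thbs1 were also called in all 6 alternatives that tested them, while the others lost their call in at least 1, DESeq2 among them. Single cells weigh on the first group: in knockout 4 the top cell held 72 of 173 Hmgb2 UMIs, 21 of 28 Socs1 UMIs and 26 of 46 Hist1h2bc UMIs. For Cxcl2 the top cell of control 1 held 75 of 152 UMIs.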

How the results depend on the processing

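The count of genes called between knockout and control in the Prtn3+ S100a8- cells, 7 higher and 1 lower, was small and moved with most choices. It was 7 and 8 with 2 or more Prtn3 UMIs, 30 and 35 with any S100a8 count, 3 and 7 after thinning (602 genes tested), 31 and 18 without a filter on low counts, and 8 and 2 without cells of high UMI count. With alternatives chosen after seeing the data, it was 13 and 13 without dividing cells and 1 (Ifitm1) and 0 without the top cell of each gene, a step that takes more from the 23 knockout cells than from larger sums. At an unadjusted p under 0.05 there were 375 genes. Ifitm1 was called in all 8 alternatives that tested it, Cxcl2 in 5 of 8. Interaction calls, 9 and 18, were 0 and 2 with DESeq2, 4 and 15 without dividing cells, and 1 and 3 without top cells. In Prtn3-negative cells DESeq2 called 14 higher genes.

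Shares of cells in knockout 4, control 1 and control 3 were 0.189%, 0.251% and 0.638% after thinning, 0.202%, 0.365% and 0.752% with 2 or more Prtn3 UMIs, and 3.12%, 3.84% and 4.93% with any S100a8 count. Among genes named for their knockout effect, directions reversed for Hmgb2, -0.36 with 2 or more Prtn3 UMIs and -0.12 without dividing cells (interaction -0.050), and, with any S100a8 count, for Spp1 (-0.30), Cxcl2 (0.0051), G6pdx (0.022), Slc7a11 (0.16) and Thbs1 (1.15). Serpinb10 ran from -1.39 to 0.040 with single controls left out. Genes named for their interaction also changed sign within the Prtn3+ S100a8- cells: Id3 to -0.49 with any S100a8 count, Chil3 to 0.29 without control 3, and Fth1 to 0.077 with 2 or more Prtn3 UMIs, 0.088 without cells of high UMI count and 0.14 without control 3. With 10 or more Ly6c2 UMIs in both cell groups the ratio of Tppp3 in knockout 4 was 0.89. The causes were not tested. No paired analysis was possible because the controls are numbered 1 and 3 and the knockout 4, so no number is shared. The depth of 222144 UMIs over 23 knockout cells limits what can be seen in low genes.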
